A study of Mus musculus with 16 samples.

Results

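The mouse mammary tumour cell lines MI6 and MI7, which carry a d16HER2 transgene, were compared with WTHER2-1, a mouse mammary tumour cell line that carries a wild-type HER2 transgene. The comparison used 12 of the 16 arrays of the study, chosen by their cell line label, with 4 arrays for each of the 3 lines. The other wild-type HER2 line, WTHER2-2, was left out of the normalization and of the test. Messenger RNA was measured on Illumina mouse BeadChips, on which a probe's value is the averaged brightness of its beads. A gene was counted only when MI6 and MI7 each differed from WTHER2-1 in the same direction. The labels give no mouse strain, no promoter of the transgene and no culture history, and they leave unsaid if the 4 arrays of each line came from separate cultures. The p-values therefore measure the spread between arrays, which may be technical, and each transgene state is represented by the lines named and no others.

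HER2, the product of the gene ERBB2, is a receptor tyrosine kinase that pairs with other ERBB receptors and passes signals to the MAPK and the PI3K and AKT pathways. The splice form d16HER2 lacks a short extracellular stretch next to the membrane, and its receptors can join into stable dimers through disulphide bonds. Mammary tumour cells can hold an epithelial state, with tight junctions, E-cadherin and simple keratins, or move towards a mesenchymal state, with collagens, fibronectin, vimentin and transcription factors of the Snail and Zeb families. The mammary epithelium itself consists of luminal cells, among them hormone-responsive cells and progenitors that make milk proteins, and of basal myoepithelial cells.

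Values are log2 intensities after background correction and quantile normalization, and differences are the d16HER2 line minus WTHER2-1. Probes were detected, with a detection p under 0.05 against the negative control beads, for 38.8% to 41.8% of 45281 probes on an array. Median raw intensity was 91.8 to 104.8 on the arrays of MI6 and MI7 and 136.4 to 148.7 on those of WTHER2-1. MI6 and MI7 shared BeadChips 1 and 2, whereas WTHER2-1 was on BeadChips 5 and 6. No BeadChip held both transgenes, so the BeadChip and the transgene cannot be told apart. The first principal component held 66.0% of the variance and separated WTHER2-1 from both d16HER2 lines. On the second component, with 10.7%, WTHER2-1 replicate 3 stood apart at -31.8, while its 3 companions lay at 10.1 to 11.3. Its lowest correlation with an array of its line was 0.957 across genes, which are not independent replicates. Where leaving out 1 array is described, the tested genes are those of all 12 arrays, a choice made after seeing the data, because the detection filter itself drops genes seen in 1 line alone when an array of that line is left out.

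Of 10384 genes tested, 1350 were called in both d16HER2 lines, which is 13.0% of the genes, and 729 of them were higher (7.02% of all genes) and 621 lower (5.98%). A call required a limma adjusted p under 0.05 and a log2 difference of at least 1, a 2-fold difference, in each line. Against WTHER2-1, 1827 genes (17.6%) passed in MI6 and 1724 (16.6%) in MI7. Both counts rest on the same WTHER2-1 arrays. The median difference over all genes was 0.03, the median of the genes called higher 1.76 and that of the genes called lower -1.83. In both lines 494 genes differed at least 4-fold, 250 of them higher and 244 lower, and 90 differed at least 16-fold. Of the genes called higher, 119 were detected on no WTHER2-1 array, and of those called lower 144 were detected on no d16HER2 array. These 2 counts are not alike, since a probe needed detection on at least 4 arrays. Any 4 of the 8 d16HER2 arrays sufficed, but all 4 of WTHER2-1 were needed. Such genes passed the detection filter only through the lines where they were high. Where a list or family below holds them, its counts rest partly on which members entered. In 1252 of the 1350 called genes the 8 d16HER2 arrays did not overlap with the 4 WTHER2-1 arrays, against 29.0% of all genes tested. The calls were made on these same arrays, so a larger share among them follows from the selection.

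**Figure D1:**
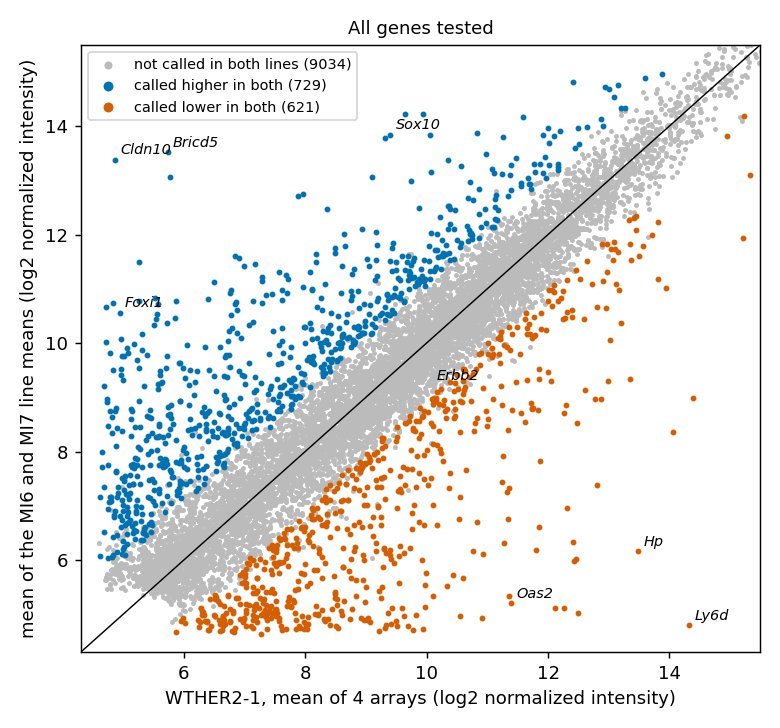
Each point is 1 of 10384 genes, with its mean log2 normalized intensity over the 4 WTHER2-1 arrays on the x axis and the mean of the MI6 and MI7 line means on the y axis. Blue points are the 729 genes called higher and orange points the 621 called lower in both d16HER2 lines; genes near the left or lower edge are at background in 1 transgene, and the line marks equal levels.

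The genes that stood highest over WTHER2-1 were near background there and among the brighter probes in MI6 and MI7. Where a probe was detected on no array of a line, its fold is a lower bound, with the dim side taken on each array as the higher of the probe's own value and the lowest value of a detected probe. Cldn10, which encodes a claudin that forms ion-selective pores in tight junctions, measured 13.60, 13.40, 13.24 and 13.00 in MI6, 13.44, 13.71, 13.46 and 13.17 in MI7, and 4.85, 4.81, 4.99 and 4.84 in WTHER2-1. All 8 d16HER2 arrays were bright and no WTHER2-1 array detected the probe, so the level was at least 209.9-fold higher in MI6 and at least 231-fold higher in MI7. The fitted differences were 8.44 ± 0.15 (SE) with a limma adjusted p of 2.29e-13 and 8.58 ± 0.15 with 1.85e-13, and 2 other probes of the gene gave 5.69 and 6.62. Bricd5, a BRICHOS domain gene, measured 13.94, 14.15, 14.31 and 13.25 in MI6, 13.16, 13.31, 12.94 and 13.08 in MI7, and 5.71, 5.63, 5.61 and 5.97 in WTHER2-1. Its differences were 8.18 and 7.39, and the groups lay far apart on every array. Clic6, of the chloride intracellular channel family, measured 13.18, 13.29, 13.41 and 11.98 in MI6, 13.23, 13.43, 13.47 and 12.43 in MI7, and 5.71, 5.62, 6.23 and 5.54 in WTHER2-1. Replicate 4 was the lowest array of both d16HER2 lines, yet it stayed above every WTHER2-1 array, and the differences were 7.19 and 7.37.

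Most other genes of this group were also detected on no WTHER2-1 array. Igfals, the acid-labile subunit of circulating IGF complexes, was at least 102-fold higher in MI6 and at least 34.9-fold higher in MI7, and these lines themselves differed by 1.55 (limma adjusted p = 7.76e-05). Anpep, the surface aminopeptidase N (CD13), was at least 37.0-fold and 30.3-fold higher, and the epidermal-type lipoxygenase gene Alox12e at least 25.3-fold and 49.6-fold higher. Foxi1, a forkhead transcription factor of ion-transporting epithelial cells, measured 10.55 ± 0.15 (SD, n = 4) in MI6, 10.56 ± 0.16 in MI7 and 4.94 ± 0.13 in WTHER2-1, at least 31.0-fold higher in MI6 and 31.1-fold in MI7. Lcp1 encodes L-plastin, an actin-bundling protein best known from leukocytes, and was at least 39.6-fold higher in MI6 and 11.4-fold in MI7. The small GTPase gene Rasl12 and the X-linked gene Armcx1 were at least 45.7-fold and 17.1-fold higher in MI6, and at least 28.2-fold and 28.7-fold in MI7. The remaining genes were detected on 2 WTHER2-1 arrays. Afap1l1, which encodes an actin-associated adaptor, differed by 5.31 and 5.29 at its brightest probe and by 1.71 at its other probe, and Syne4, a nuclear envelope protein gene, by 5.17 and 5.13.

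The genes that stood lowest were bright in WTHER2-1 and near background in MI6 and MI7. Ly6d, which encodes a GPI-anchored surface antigen, measured 4.72, 4.84, 4.74 and 4.74 in MI6, 4.87, 4.87, 4.83 and 4.78 in MI7, and 14.66, 14.60, 13.56 and 14.49 in WTHER2-1. No d16HER2 array detected it, so it was at least 399.9-fold lower in MI6 and at least 403-fold lower in MI7 (limma adjusted p = 2.63e-12 and 3.04e-12), and its other probe differed by -8.82. Hp, the gene of the haemoglobin-binding acute phase protein haptoglobin, measured 5.39, 5.54, 5.69 and 5.71 in MI6, 6.99, 7.15, 6.70 and 6.15 in MI7, and 14.23, 13.04, 12.56 and 14.10 in WTHER2-1. It fell by 7.90 in MI6 and by 6.73 in MI7, with no overlap between the groups, and 2 other probes gave -7.46 and -7.26. Igf2, an imprinted growth factor gene, measured 4.84, 4.94, 4.90 and 4.87 in MI6, 4.78, 4.93, 4.90 and 5.31 in MI7, and 11.76, 10.53, 9.63 and 11.70 in WTHER2-1. It was detected on every WTHER2-1 array and on no d16HER2 array, a fall of at least 37.3-fold in MI6 and 37.6-fold in MI7.

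Prl2c4, Prl2c3 and Prl2c2, which encode proliferins, secreted proteins of the prolactin family, were detected on no d16HER2 array, and their near-identical sequences may let the probes read each other's transcripts. In WTHER2-1 Prl2c4 measured 14.08, 14.80, 7.40 and 13.68, Prl2c3 11.76, 14.63, 8.05 and 14.61, and Prl2c2 13.56, 12.72, 7.62 and 14.57. Replicate 3 was the low array each time, although it too lay above every d16HER2 array, of which the brightest read 5.32, 5.65 and 5.59. Rassf4, of a family of proteins that bind Ras, was at least 107-fold lower in MI6, where it was undetected, and 42.4-fold lower in MI7, where it was detected on 4 arrays. Col6a1, a chain of collagen VI, was likewise at least 109.8-fold lower in MI6 and 44.4-fold lower in MI7. Hspb8, a small heat shock protein gene, differed by -5.78 and -6.39, and the interferon-induced gene Ifi27l2a by -5.63 and -5.80. Fgfbp1, whose secreted product releases FGFs from the matrix, was at least 51.0-fold lower in MI6, where no array detected it, and 51.7-fold lower in MI7, where 1 array did.

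**Figure D2:**
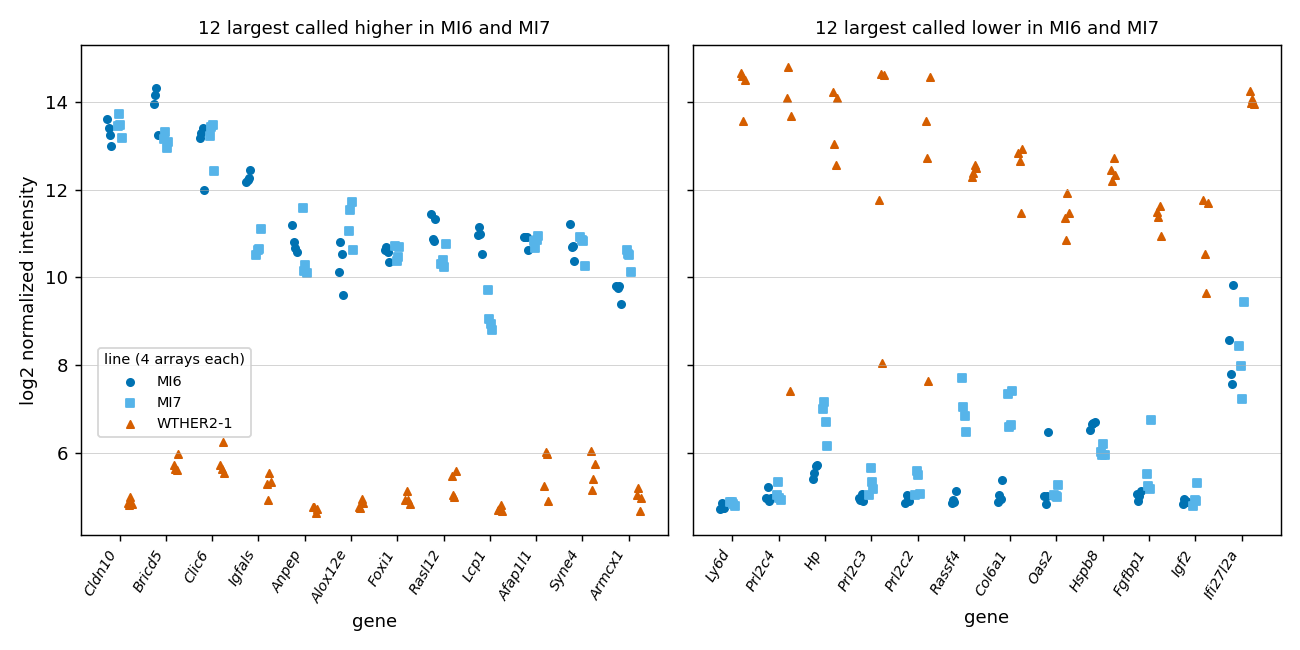
Points are the log2 normalized intensities of single arrays (4 per line, so 12 per gene) for the 12 genes with the largest mean difference called higher (left) and called lower (right). MI6 is shown as dark blue circles, MI7 as light blue squares and WTHER2-1 as orange triangles; the groups do not overlap in any of the 24 genes, and 1 WTHER2-1 array lies low for the 3 proliferin genes.

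The ERBB receptors and their ligands gave no call. The Erbb2 probe measured 9.20, 9.06, 9.10 and 9.27 in MI6, 9.48, 9.12, 9.26 and 9.27 in MI7, and 10.11, 9.88, 10.38 and 9.94 in WTHER2-1. Every d16HER2 array lay below every WTHER2-1 array, by -0.92 in MI6 and -0.80 in MI7 (limma adjusted p = 0.000152 and 0.000545), which is under the 2-fold minimum. It is a probe for mouse Erbb2, and whether transgene RNA binds it is not given in the sources used here, so the labels are not checked by it. Egfr differed by 0.06 and 0.31, with mean differences of -0.47 to -0.15 at 3 other probes, and Erbb3, a receptor that depends on its partners for kinase activity, by -0.32 and -0.15, with limma adjusted p-values between 0.143 and 0.789, and Erbb4 was too seldom detected to be tested. None of the 12 tested members of the list was called, and the median was -0.02. Btc, the ligand betacellulin, came nearest, with 0.98 in MI6 and 1.24 in MI7, and the d16HER2 and WTHER2-1 arrays did not overlap. It passed without WTHER2-1 replicate 3 (mean difference 1.27) or without MI6 replicate 1 (1.18).

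Downstream of the receptors the calls went both ways among MAPK genes. Of 17 MAPK feedback and ETS target genes, 3 were called higher and 2 lower, 29.4% of them against 13.0% of all genes, with a median of 0.18. Etv1, an ETS family transcription factor, measured 11.26, 11.65, 11.79 and 11.02 in MI6, 11.75, 11.74, 11.83 and 11.49 in MI7, and 7.80, 7.26, 5.20 and 7.39 in WTHER2-1. It rose by 4.52 and 4.79, and 2 other probes gave 4.13 and 4.23. Phlda1 rose by 1.28 and 1.40 and Dusp4, a nuclear MAPK phosphatase named after its values were seen, by 1.20 and 1.06 (0.33 to 0.73 at its 3 other probes), whereas Dusp5, another such phosphatase, fell by 1.59 and 1.97 and Myc by 1.26 and 1.34 with overlapping arrays. Dusp6, Spry4, Etv5 and Ccnd1 did not pass. Of 11 SRC family kinases and adaptors, 3 (27.3%) were called higher, against 7.02% of all genes. They were Fyn, a SRC family kinase that was detected on no WTHER2-1 array (at least 3.06-fold higher in MI7, with 0.14 at its other probe), the related focal adhesion kinase Ptk2b (1.42 and 1.22) and caveolin Cav1 (2.13 and 3.40). Cav1 overlapped between the groups, since WTHER2-1 measured 8.31, 10.58, 5.50 and 8.91, and Src itself differed by 0.15 and 0.18. The mean difference of Cav1 was 1.82 in place of 2.76 without WTHER2-1 replicate 3, and Cav1 lost its call without WTHER2-1 replicate 1 (2.77) or without MI6 replicate 1 (2.70), replicate 2 (2.80) or replicate 4 (2.74). Of 21 PI3K and AKT pathway genes, 2 (9.52%) were called, both lower, a share under the 13.0% of all genes. They were the mTOR inhibitor gene Deptor (-2.92 and -2.76, with -1.54 at its other probe) and the AKT antagonist Phlda3 (-1.52 and -1.26).

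WTHER2-1 carried epithelial and mesenchymal transcripts together. In MI6 and MI7 most epithelial genes did not pass, and those that did were mostly higher, whereas nearly all mesenchymal genes that passed were lower. Of 37 epithelial junction and identity genes on the array, 27 were detected on all 4 WTHER2-1 arrays, 29 on all of MI6 and 31 on all of MI7, so all 3 lines carried epithelial transcripts. E-cadherin, Cdh1, measured 11.67 ± 0.12 in WTHER2-1, 11.89 ± 0.11 in MI6 and 12.03 ± 0.23 in MI7 and was not called. Of 32 tested members 6 were called higher and 1 lower (against 7.02% and 5.98% of all genes), and the median was 0.64, against 0.03 over all genes. The list's mean was 10.13 to 10.46 on the 8 d16HER2 arrays and 9.55 to 9.81 on the 4 of WTHER2-1. Krt18, a simple keratin, measured 14.74, 14.71, 14.61 and 14.70 in MI6, 14.62, 14.84, 14.79 and 14.81 in MI7, and 13.02, 13.19, 12.49 and 13.04 in WTHER2-1. It rose by 1.75 and 1.83. The tight junction genes Tjp3 (2.14 and 2.17) and Cldn1 (1.56 and 2.70) rose as well, as did Epcam, Muc1 and Ocln, named after their values were seen. Grhl1, a grainyhead transcription factor, fell by 1.81 and 1.56. Without background correction, as in the normalized table of the authors, 3 members were called higher in place of 6.

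Of 26 tested mesenchymal and matrix genes, 12 were called lower and 2 higher (against 5.98% and 7.02% of all genes), with a median of -1.56. Of the 35 on the array, 24 were detected on all 4 WTHER2-1 arrays, 15 on all of MI6 and 18 on all of MI7. The collagen V chain Col5a1 measured 5.68, 5.16, 4.91 and 6.53 in MI6, 5.23, 4.94, 4.83 and 5.41 in MI7, and 10.55, 10.67, 8.72 and 10.45 in WTHER2-1. It fell by 4.53 in MI6 and was at least 21.5-fold lower in MI7, where no array detected it, with replicate 3 the lowest WTHER2-1 array. Lox, the lysyl oxidase that cross-links collagen, was at least 33.8-fold lower in MI6 and 9.93-fold lower in MI7, and Emp3, a membrane protein gene, differed by -4.97 and -4.66. The transcription factor gene Snai1, named with the following genes after their values were seen, fell by 3.12 and 3.25, with -1.45 at its other probe. Snai2 and Zeb1, of related factors, were detected on no d16HER2 array and were at least 3.26-fold and 3.28-fold lower in MI6 and 3.29-fold and 3.30-fold lower in MI7. Fibronectin, Fn1, was 32.1-fold lower in MI6 and 3.62-fold lower in MI7, with -2.35 and -2.29 at its other probes, and vimentin, Vim, 7.68-fold and 3.16-fold lower. The matrix glycoproteins Tnc (6.19-fold and 8.93-fold higher, with differences of 0.67 to 2.90 at its 3 other probes) and Thbs1 (6.17-fold and 5.67-fold higher) went the other way. The mean of the tested members was 7.53 to 8.47 on the d16HER2 arrays and 9.78, 9.84, 8.81 and 9.88 on those of WTHER2-1, where replicate 3 was lowest. Snai2, Zeb1 and Col6a2 passed the detection filter through WTHER2-1 alone.

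Most markers of other cell types were undetected in each of the 3 lines. Of 17 fibroblast markers on the array, 14, 12 and 10 were detected on no array of MI6, MI7 and WTHER2-1, among them Col3a1, Lum, Fap and Pdgfrb in each line, whereas Dcn was detected on 3 WTHER2-1 arrays only. Of 5 tested, 4 were called lower, against 5.98% of all genes. They were Col6a1, Col6a2 (at least 8.50-fold and 8.57-fold, with -1.62 at its other probe), the platelet-derived growth factor receptor gene Pdgfra (-4.47 in MI6 and at least 25.3-fold in MI7) and the actin-severing gene Gsn (at least 9.64-fold in MI6 and -2.93 in MI7). Col6a1 and Col6a2 are counted in the mesenchymal list as well. The mean of the 5 tested members was 5.30 to 5.93 on the d16HER2 arrays and 8.54 to 9.46 on those of WTHER2-1. Col6a2 passed the detection filter only through its 4 WTHER2-1 arrays, so the gap rests partly on which members entered. Of 14 immune markers, 12, 12 and 11 were detected on no array, Ptprc, which encodes CD45, among them, and Cd14 and Csf1r were detected everywhere and not called. Of 10 endothelial markers 6, 7 and 6, and of 8 adipocyte markers 6, 6 and 5, were detected on no array of MI6, MI7 and WTHER2-1, among them Pecam1, Cdh5, Vwf, Adipoq, Plin1 and Fabp4. Kdr and Lep were detected on all arrays of every line and not called, and Pparg was detected on 3 WTHER2-1 arrays only. Of the tested markers of these 2 types, Plvap (-2.63 and -3.42) and the lipase gene Lpl (-3.56 and -2.36) were called lower. The part of other cell types in the matrix genes was not tested, and fewer cells of a type and less RNA per cell cannot be told apart.

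**Figure D3:**
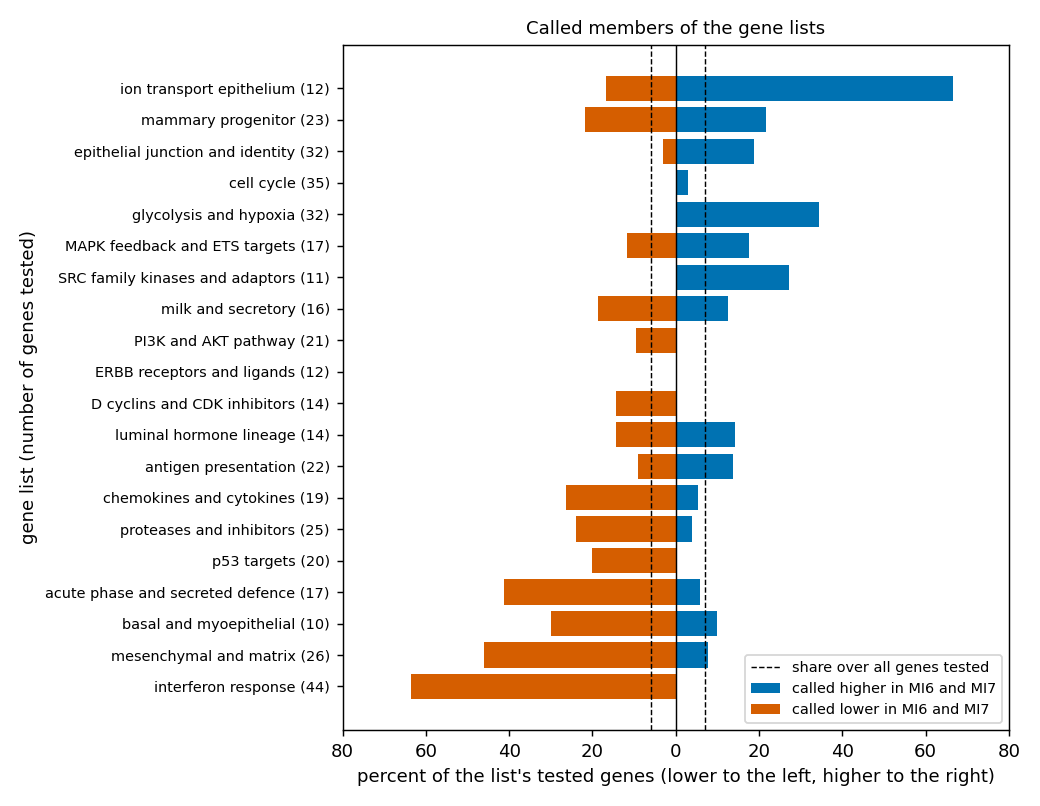
Bars give the percent of each list's tested genes that were called higher (blue, to the right) or lower (orange, to the left) in both d16HER2 lines, for the lists with at least 10 tested genes, ordered by median difference. The dashed lines mark the shares over all genes, 7.02% higher and 5.98% lower; the interferon and mesenchymal lists reach furthest to the left and the ion transport list furthest to the right.

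Interferons induce a common set of antiviral genes through the factor ISGF3, which contains STAT2 and IRF9 and binds a DNA element built from GAAA repeats. This list had the most calls lower than WTHER2-1. Of 44 tested, 28 were called lower and none higher (against 5.98% and 7.02% of all genes), 42 had a lower mean (against 4996 of the 10384 genes), and the median was -1.84. Promoter stretches of 9 members called lower are shown because they hold that element, from RefSeq on build GRCm38.p6, 5′ to 3′ on the strand of the gene. The motif GAAANNGAAA was searched on both strands in the 300 bases from 250 before to 50 after each start site, and capitals mark every match, overlapping matches included; TTTCNNTTTC is its reverse complement. Apol9b and Apol9a are apolipoprotein L genes and have the same stretch, at chr15:77729010-77729075 (plus strand) and chr15:77411099-77411164 (minus strand). Oas1g, Oas1a and Oas3 encode oligoadenylate synthetases, which make the activator of the antiviral nuclease RNase L, at chr5:120887591-120887656, chr5:120907505-120907570 and chr5:120777700-120777759 (all minus strand). Isg15 encodes a ubiquitin-like modifier, at chr4:156200850-156200921 (minus strand), and Gbp3 a guanylate-binding protein, at chr3:142559974-142560039 (plus strand). Ifit3 encodes an antiviral RNA-binding complex protein, at chr19:34583348-34583441, and Stat2 a subunit of ISGF3 itself, at chr10:128270251-128270310 (both plus strand).
Apol9b: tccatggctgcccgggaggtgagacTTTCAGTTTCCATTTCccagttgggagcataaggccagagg
Apol9a: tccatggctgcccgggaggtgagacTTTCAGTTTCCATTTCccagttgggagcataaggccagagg
Oas1g: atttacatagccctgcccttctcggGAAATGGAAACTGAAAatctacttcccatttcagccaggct
Oas1a: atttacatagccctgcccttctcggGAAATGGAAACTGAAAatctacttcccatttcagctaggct
Oas3: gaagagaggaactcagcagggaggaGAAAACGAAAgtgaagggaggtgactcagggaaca
Isg15: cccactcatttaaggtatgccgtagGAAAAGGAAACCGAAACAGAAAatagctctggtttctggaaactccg
Gbp3: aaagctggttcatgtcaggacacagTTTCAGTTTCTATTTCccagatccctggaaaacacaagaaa
Ifit3: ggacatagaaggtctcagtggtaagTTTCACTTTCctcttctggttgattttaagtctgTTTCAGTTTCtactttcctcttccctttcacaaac
Stat2: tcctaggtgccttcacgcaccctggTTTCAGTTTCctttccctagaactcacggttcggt

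The motif was present in the promoter window of 14 of the 21 members called lower that have one (66.7%) and in 5 of the 12 members tested and not called (41.7%). It was present in 299 of 8431 tested genes with a window (3.55%) and in 1079 of 27025 genes with a window (3.99%). Promoters on chr18 were left out of all these counts. A match describes these letters and is neither a site nor a cause.

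The Oas family gave the largest difference of the list. Oas2, an oligoadenylate synthetase, measured 5.01, 4.82, 5.02 and 6.46 in MI6, 5.02, 5.01, 4.99 and 5.26 in MI7, and 11.35, 10.85, 11.92 and 11.47 in WTHER2-1. It was detected on all 4 WTHER2-1 arrays, on replicate 4 of MI6 and on no MI7 array, and was at least 52.9-fold lower in MI7, with fitted differences of -6.07 and -6.32 (limma adjusted p = 5.47e-09 and 3.97e-09). Apol9b measured 6.48, 5.57, 5.48 and 8.65 in MI6, 7.38, 6.07, 6.15 and 7.84 in MI7, and 10.78, 10.38, 11.56 and 10.62 in WTHER2-1. Replicate 4 was again the highest array of both d16HER2 lines and still lay under every WTHER2-1 array. Oas1g differed by -4.54 and -3.51, with -3.68 at its other probe, and the galectin-3-binding protein gene Lgals3bp by -2.83 and -5.20. The Oas1, Apol9 and Gbp genes have near-identical copies that a probe may not tell apart. Of the printed promoters' genes, named here for their sequence, Gbp3 was 7.98-fold lower in MI6 and 6.39-fold lower in MI7, Isg15 differed by -3.02 and -3.11, Ifit3 by -2.22 and -2.32, and Stat2 by -1.48 and -1.28, the last pair with overlapping arrays, and Irf9 did not pass. The list's mean was 9.93 to 10.38 in WTHER2-1. It was 8.09, 7.79, 7.74 and 9.28 in MI6 and 8.40, 7.96, 7.90 and 8.90 in MI7, so replicate 4 stood above the other arrays of both lines, and all 8 arrays lay below WTHER2-1.

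**Figure D4:**
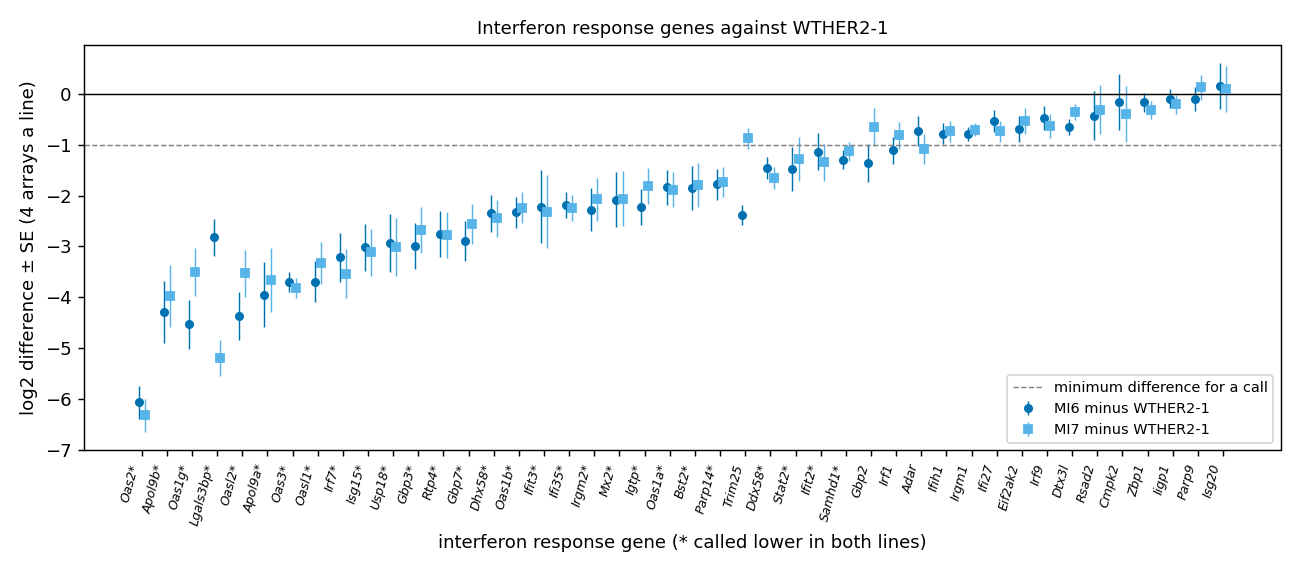
The log2 difference from WTHER2-1, with its standard error, is plotted for each of the 44 tested interferon response genes, with dark blue circles for MI6 and light blue squares for MI7, which share the WTHER2-1 arrays. Asterisks mark the 28 genes called lower in both lines, and 42 of the 44 lie on average below 0.

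Antigen presentation genes, many of them also interferon-inducible, did not follow as a group. Of 22 tested, 2 were called lower and 3 higher (against 5.98% and 7.02% of all genes), and the median was -0.08. The lower genes were the peptide transporter subunits Tap1 (-1.61 and -1.36) and Tap2 (-1.02 and -1.65). With no background correction neither passed (mean differences of -0.98 and -1.21), and Tap2 lost its call in 11 of 32 alternatives, among them those without MI6 replicate 2 (-1.26), MI6 replicate 3 (-1.31), WTHER2-1 replicate 1 (-1.29) or WTHER2-1 replicate 3 (-1.21). The non-classical class I gene H2-Q2, which has close relatives, was at least 7.41-fold and 6.08-fold higher, and Cd1d1, which presents lipids to natural killer T cells, rose by 3.03 and 3.33. The third, Tapbpl, was named after its values were seen (1.24 and 1.06). B2m differed by -0.16 and -0.18.

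Among lineage genes, progenitor regulators split, and of the basal genes that passed all but 1 fell. Of 23 mammary progenitor genes, 5 were called higher and 5 lower (against 7.02% and 5.98% of all genes), with a median of 0.64. Sox10, a transcription factor of the neural crest and of mammary progenitors, measured 13.82, 13.82, 13.78 and 13.51 in MI6, 14.23, 13.73, 13.99 and 13.82 in MI7, and 9.20, 9.16, 9.67 and 9.58 in WTHER2-1. It rose by 4.33 and 4.54 and was detected on every array of all 3 lines. The retinaldehyde dehydrogenase gene Aldh1a3 was detected on no WTHER2-1 array and was at least 18.3-fold and 30.7-fold higher. Cxcr4, the receptor of the chemokine CXCL12, rose by 4.20 and 4.34, while Id1, an inhibitor of basic helix-loop-helix factors, fell by 3.91 and 3.45. Id4 (3.34 and 2.81) and Id3 (-2.29 and -2.22), relatives of Id1 named after their values were seen, went in opposite directions.

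Of 14 luminal hormone lineage genes, 2 were called in each direction, while over all genes 7.02% were called higher and 5.98% lower. Foxa1, a pioneer factor of the oestrogen receptor, measured 7.84, 8.45, 8.06 and 7.60 in MI6, 6.39, 6.14, 5.92 and 5.64 in MI7, and 9.88, 9.60, 10.06 and 9.62 in WTHER2-1. The 3 lines did not overlap, and MI7 lay lowest, by -3.77 from WTHER2-1 against -1.80 for MI6. Wnt4, a progesterone-induced Wnt ligand, was detected on no d16HER2 array, at least 2.52-fold and 2.54-fold lower, whereas Wnt5a (2.47 and 1.70) and stanniocalcin Stc1 (3.33 and 1.65) rose. Of 16 milk and secretory genes, 3 were called lower and 2 higher. The beta-casein gene Csn2 was at least 26.8-fold lower in MI6 and 15.3-fold lower in MI7, and Thrsp, a lipogenic regulator, differed by -1.13 in MI6 and was at least 1.55-fold lower in MI7, where no array detected it. The folate receptor gene Folr1 (4.25 and 4.13) and the mucin gene Muc15 (2.25 and 2.34) rose. Of 10 basal and myoepithelial genes, 3 were called lower and 1 higher, with a median of -0.86. Trp63, which encodes the basal factor p63, measured 8.90, 8.97, 7.89 and 9.18 in WTHER2-1. No array of MI6 or MI7 detected it, a level at least 8.28-fold and 8.35-fold lower. The basal keratin Krt14 fell by 4.03 in MI6 and by 1.81 in MI7, Krt15 by 1.44 and 1.11 with overlapping arrays, and Sfn, which encodes 14-3-3 sigma, rose by 2.65 and 2.81. Krt15 lost its call without MI7 replicate 1 (mean difference -1.22), MI7 replicate 3 (-1.26), WTHER2-1 replicate 1 (-1.05) or WTHER2-1 replicate 4 (-1.22). Without MI7 replicate 1 the list still had 3 genes called lower, and without each of the others 2. With the detection filter applied again, 1 was called lower without WTHER2-1 replicate 1 or replicate 4. Trp63, and Wnt4 of the luminal list, passed that filter through WTHER2-1 alone, so these counts rest partly on which members entered.

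Genes of ion-transporting epithelia lay highest of the lists, with a median of 1.87. Of 12 tested members 8 were called higher and 2 lower, against 7.02% and 5.98% of all genes. The carbonic anhydrase Car2 measured 11.10 ± 0.44 (SD, n = 4) in MI6, 10.54 ± 0.25 in MI7 and 6.40 ± 0.50 in WTHER2-1, and the groups did not overlap. It rose by 4.70 and 4.14. Foxi1 and Clic6 are described above, and the proton pump subunit Atp6v1c2 rose by 2.74 and 3.78, with 0.87 at its other probe. Slc12a2, Kcnn4, Car12 and Atp6v1b1 were the other members called higher and Atp1b1 and Slc9a3r1 those called lower (1 of them without MI6 replicate 2 or replicate 4), all named after their values were seen except Car12. The mean of the tested members was 10.61 to 11.24 on the d16HER2 arrays and 8.83 to 8.89 on those of WTHER2-1, and replicate 4 was the lowest array of both d16HER2 lines. Foxi1 passed the detection filter through the d16HER2 arrays alone. Of the 23 members on the array, 10 in MI6, 10 in MI7 and 11 in WTHER2-1 were detected on no array.

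Of 17 acute phase and secreted defence genes, 7 were called lower and 1 higher (against 5.98% and 7.02% of all genes), with a median of -0.85. The higher gene, Chil1, which encodes a chitinase-like protein and was named after its values were seen, was 4.94-fold and 5.66-fold higher. Besides Hp, the kininogen genes Kng1 (at least 19.6-fold and 19.7-fold, with -1.27 at its other probe) and Kng2 (-3.59 and -3.23) and the orosomucoid gene Orm1 (at least 19.5-fold in MI6 and -4.28 in MI7) were lower. The kininogens have closely similar sequences, and Kng1 passed the detection filter through WTHER2-1 alone. Lcn2 and Saa1 did not pass. Of 19 chemokines and cytokines, 5 were called lower and 1 higher. Ccl5, a chemokine that draws T cells, measured 6.34, 5.42, 5.80 and 7.17 in MI6, 5.96, 5.69, 6.10 and 6.55 in MI7, and 9.79, 9.58, 8.41 and 9.53 in WTHER2-1. Ccl25 fell by 1.33 and 2.34, Il18 by 2.30 and 2.04 with overlapping arrays, and the granulocyte growth factor gene Csf3 rose by 1.89 and 2.13, with -0.06 at its other probe. Without WTHER2-1 replicate 2, WTHER2-1 replicate 4 or MI7 replicate 3, 3 members were called lower in place of 5. Il18 was among those lost, at -1.58, -1.81 and -2.11 in that order.

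Cell cycle genes varied between arrays of a line, and the lines overlapped. Of 35 tested, 29 were on average higher in MI6 and MI7, against 51.9% of all genes, and the median was 0.56, but 1 was called, the mitotic kinesin gene Kif23 (2.11 and 1.88, with 0.77 and 1.09 at its other probes). The list's mean was 9.54, 10.60, 10.56 and 8.96 in MI6, 10.20, 10.73, 10.67 and 9.56 in MI7, and 9.24, 9.67, 10.59 and 9.23 in WTHER2-1. Replicate 4 was the lowest array of MI6 and of MI7 and replicate 3 the highest of WTHER2-1, the same arrays that stood apart in the interferon and in the glycolysis or matrix lists. Without these 3 arrays, 14 cell cycle members were called higher in place of 1, so the count depends on them. Kif23 kept its call in that alternative. The part of this array difference in the other lists was not tested, and further calls without these 3 arrays are given with the alternatives. Of 14 D cyclins and CDK inhibitors, 2 were called, both lower, a share of 14.3% that is near the 13.0% of all genes. Cyclin D2, Ccnd2, measured 9.19, 8.94, 10.63 and 9.28 in WTHER2-1. MI6 and MI7 gave no detection, a level at least 14.2-fold and 14.3-fold lower, with -3.76 at its other probe. Cdkn2a, which encodes p16INK4a and p19ARF, differed by -1.68 in MI6 and was at least 3.14-fold lower in MI7, with overlapping arrays. Cyclin D1, Ccnd1, did not pass. Of 20 p53 target genes, 4 were called lower and none higher (against 5.98% and 7.02% of all genes), with a median of -0.45. The lower genes were Psrc1 (-1.78 and -1.60), Phlda3, Aen (-1.25 and -1.15) and Zmat3 (-1.15 and -1.01), and Cdkn1a and Mdm2 did not pass. With no background correction, in the authors' normalized table or with an offset of 50, 2 were called lower, without Aen and Zmat3. Zmat3 lost its call in 13 of 32 alternatives, among them those without MI7 replicate 2 (mean difference -1.03), 3 (-1.08) or 4 (-1.04) or WTHER2-1 replicate 2 (-1.01) or 4 (-1.03), and Aen in 7.

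Glycolysis and hypoxia genes were higher where they were called, with 11 of 32 called higher, against 7.02% of all genes. None was called lower, and the median was 0.52. The platelet-type phosphofructokinase Pfkp, which sits at the committed step of glycolysis, measured 13.50, 13.21, 13.26 and 13.46 in MI6, 13.31, 12.67, 12.71 and 13.11 in MI7, and 10.23, 10.42, 9.54 and 10.08 in WTHER2-1. It rose by 3.29 and 2.88. Ldhd, the D-lactate dehydrogenase, rose by 4.14 and 5.55 with 4.52 and 4.90 at its other probes. The carbonic anhydrase Car12, counted in the ion transport list as well, rose by 3.36 and 2.94, and the peptide hormone gene Adm by 1.54 and 1.87. Ldha, Pgk1 and the glucose transporter Slc2a1 did not pass. WTHER2-1 replicate 3 had a mean of 10.13 over the list, the line's other arrays gave 10.90 to 10.94, and the d16HER2 arrays 11.34 to 11.72. Without that array 6 members were called higher in place of 11.

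**Figure D5:**
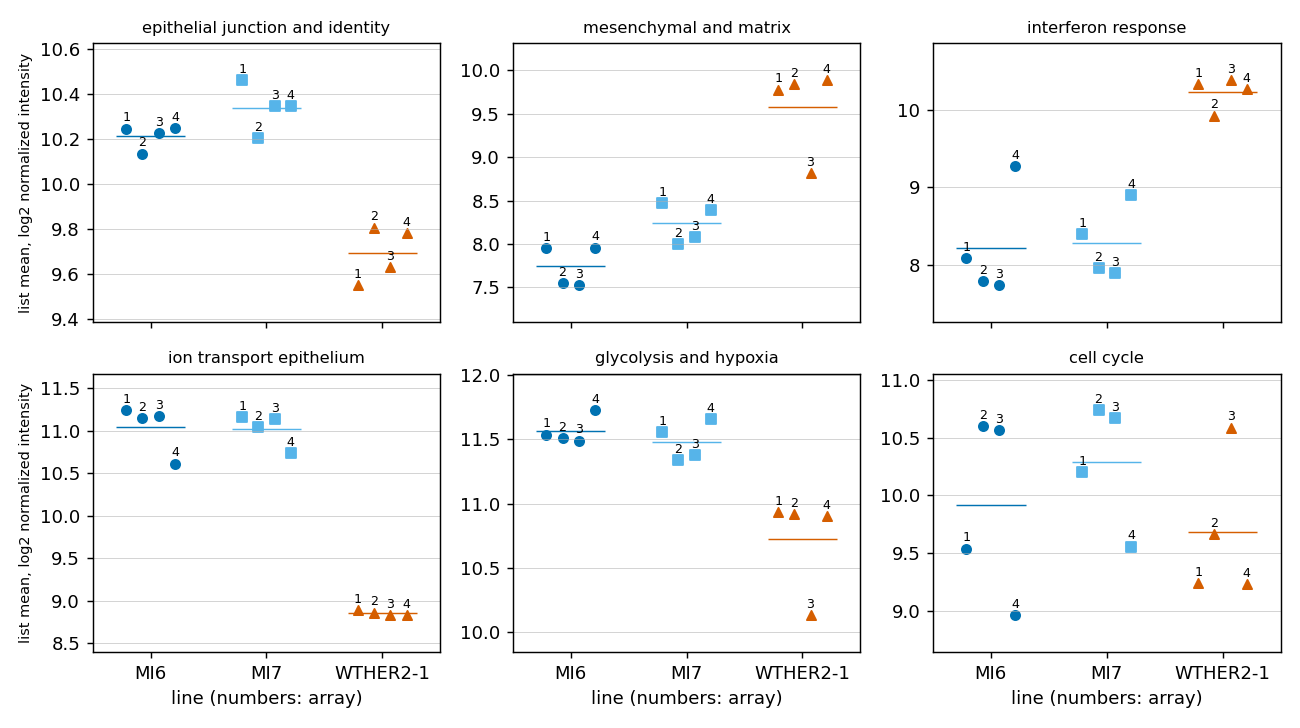
Each point is the mean log2 normalized intensity of a list's tested genes on 1 array, numbered by replicate, with a bar at the mean of the 4 arrays of each line. The d16HER2 arrays lie above WTHER2-1 for the epithelial, ion transport and glycolysis lists and below it for the mesenchymal and interferon lists, whereas for the cell cycle list the lines overlap, and replicate 4 of MI6 and MI7 and replicate 3 of WTHER2-1 stand apart in several panels.

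Of 25 protease and inhibitor genes, 6 were called lower and 1 higher (against 5.98% and 7.02% of all genes), with a median of -0.19. The 3 tested tissue inhibitors of metalloproteases were called lower. Timp1 measured 6.23, 6.74, 6.21 and 5.63 in MI6, 9.46 ± 0.60 (SD, n = 4) in MI7, and 12.42, 12.50, 10.30 and 12.26 in WTHER2-1. The 3 lines did not overlap, and Timp1 fell by 5.67 in MI6 and 2.41 in MI7, with -4.14 at its other probe. Timp3 differed by -3.09 and -3.32 and Timp2 by -1.32 and -1.65. Among the proteases, the collagenase gene Mmp13 was called lower (-1.72 and -1.02) with overlapping arrays and 0.06 at its other probe. It lost its call in 16 of 32 alternatives, among them those without replicate 2, 3 or 4 of MI7 or replicate 1, 2 or 4 of WTHER2-1 (-1.42 to -1.12). With no background correction 3 members of the list were called lower in place of 6.

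MI6 and MI7 did not always act alike against WTHER2-1. Directly compared, they differed in 235 genes, 2.26% of those tested. Of the 1350 genes called in both, 74 also differed between MI6 and MI7. In MI6 alone 469 genes were called, 65 of them also different between the lines, and in MI7 alone 366, of which 64 were. The AP-2 beta gene Tfap2b measured 9.48, 9.95, 9.95 and 9.95 in MI6 and 4.89 to 5.44 on all 8 arrays of MI7 and WTHER2-1, none of which detected it. It was at least 18.8-fold higher in MI6, and its 3 other probes gave mean differences of the d16HER2 lines of 0.83 to 2.06. The caveola component Cavin3 was the reverse, with 9.12, 9.30, 8.95 and 9.77 in MI7 and no detection in the other lines, at least 12.9-fold higher. Cdkn2b, which encodes the CDK inhibitor p15INK4b, measured 11.96 ± 0.23 in MI6 and 11.41 ± 0.74 in WTHER2-1 but 7.43 ± 0.38 in MI7, a difference of -3.98. The other genes of this kind were Gstm2 (3.53) and Emb and Prr33 (-3.28 and -3.58) in MI6, and Heph (4.94), Sgip1 and Syn2 in MI7, of which Sgip1 fell by 3.93 and Syn2 by at least 7.54-fold. The membrane metalloprotease gene Mmp14 measured 6.27 ± 0.29 in MI6, 11.22 ± 0.27 in MI7, and 9.81, 11.17, 4.83 and 10.67 in WTHER2-1. It was called lower in MI6 (-2.85) and differed by 2.10 in MI7 without passing, and the spread of WTHER2-1 spanned nearly the whole gap.

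Only 8 genes were called in opposite directions. The peripheral myelin gene Pmp22 (-1.82 in MI6 and 1.45 in MI7), Pxdc1 (-2.52 and 1.61), the cysteine dioxygenase gene Cdo1 (-1.36 and 2.30) and Zfp251 (-1.34 and 2.37) were lower in MI6 and higher in MI7. Csn1s1, the alpha-S1-casein gene, went the other way. It measured 12.89, 13.78, 13.70 and 12.90 in MI6, 10.96, 10.66, 10.51 and 8.88 in MI7, and 12.27, 11.99, 10.50 and 12.04 in WTHER2-1, a rise of 1.61 and a fall of 1.45.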

How the data were processed

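The authors deposited raw intensities, one average signal per probe and array and not normalized per the file headers, with a detection p-value beside each. The submitters' processing notes name BeadStudio without a version. Their deposited table of quantile-normalized intensities served as an alternative. Intensities of the 12 arrays were corrected for background with limma's normexp model, taking the negative controls from the detection p-values (offset 16), quantile-normalized and put on the log2 scale. Probes entered when detected (p under 0.05) on at least 4 arrays, which 16558 did, and each gene was read by its brightest probe. Of 45281 probes, 34885 had 1 symbol, 18 several and 10378 none. Of the list genes, 45 were not analysed here for want of a probe name. The 3 lines were fitted in limma 3.58.1 (R 4.3.3) with an intensity trend, the offset pulls dim differences towards 0, and p-values were adjusted by Benjamini-Hochberg over all genes of each comparison. With lines as the units, 2 against 1, the smallest exact p is 0.333. The scripts were tested on simulated data. Named were the ERBB receptors, the 12 largest calls in each direction, up to 4 called members of each of 24 lists (or the 2 largest where none was called), the 5 largest calls of MI6 alone and of MI7 alone, and 5 opposite calls, leaving out numbered predicted genes. The lists and the comparison were chosen with earlier results of these data known. The number of arrays, which give no counts, limits the precision.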

Additional observations from a re-analysis of the deposited data

Results flagged for a closer look

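In 408 groups of 4 arrays (336 for 112 named genes and 72 for the means of the lists) 32 had an array whose distance from the nearest other array took up most of the group's range by Dixon's criterion, which chance alone also meets in some groups. WTHER2-1 replicate 3 was that array in 15 of them. It was low for Ly6d (13.56), Prl2c4 (7.40), Emp3 (10.17), Col5a1 (8.72), Lox (9.39), Pdgfra (8.77), Lpl (8.25), Cd1d1 (6.92), Timp1 (10.30), Pmp22 (6.99) and Csn1s1 (10.50), and high for Folr1 (8.09). It was also low in the means of the mesenchymal (8.81), fibroblast (8.54) and glycolysis (10.13) lists.

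MI6 replicate 4 was low for Clic6 (11.98), Afap1l1 (10.61), Armcx1 (9.39), Dusp5 (10.27), Sox10 (13.51) and Atp6v1c2 (8.75) and in the mean of the ion transport list (10.61), and high for Oas2 (6.46). MI7 replicate 4 was low for Syne4 (10.25) and Ldhd (12.65) and high for Oas2 (5.26) and Orm1 (6.48). Single arrays stood apart for Mmp14 (5.83, MI6 replicate 3), Tfap2b (9.48, MI6 replicate 1), Anpep (11.57, MI7 replicate 1), Thrsp (4.61, MI7 replicate 3) and Ptk2b (6.42, WTHER2-1 replicate 4). Of these, Oas2 and Thrsp in MI7 were undetected on those arrays.

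Of the named genes, 28 differed between MI6 and MI7 in the limma test of that difference. Among genes called in both lines, MI6 minus MI7 was 1.55 for Igfals, 1.79 for Lcp1, 2.38 for Lgals3bp, 1.97 for Foxa1, 1.68 for Stc1 and 1.01 for Ccl25. It was -2.08 for Rassf4, -1.94 for Col6a1, -2.58 for Lox, -1.19 for Lpl, -2.22 for Krt14, -1.41 for Ldhd and -3.26 for Timp1. Among genes called in MI6 alone it was -4.95 for Mmp14, 4.67 for Tfap2b, 3.35 for Gstm2, -3.03 for Emb and -2.87 for Prr33. Among those called in MI7 alone it was 4.53 for Cdkn2b, -4.42 for Cavin3, 4.32 for Sgip1, -4.20 for Heph and 2.81 for Syn2. Among those called in opposite directions it was -4.13 for Pxdc1, -3.27 for Pmp22, 3.06 for Csn1s1, -3.65 for Cdo1 and -3.71 for Zfp251.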

How the results depend on the processing

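Between 920 genes (the authors' normalized table) and 1571 (array weights) were called in both lines under the alternatives that kept the threshold. Leaving out single arrays gave 1310 to 1411 with the genes of all 12 arrays kept, and 1162 to 1379 with the detection filter applied again. No gene was called in the opposite direction. With line means as replicates 1182 genes were called, which assumes that the lone WTHER2-1 mean varies like the d16HER2 lines and measures no spread among wild-type HER2 lines. With no minimum on the difference, 3434 genes were called (1780 higher and 1654 lower), 353 between MI6 and MI7, and 16 epithelial and 12 progenitor members were higher. With a log2 minimum of 2 the counts were 494 (250 and 244) and 61, with 1 epithelial, 5 ion transport and 3 glycolysis members higher and 3 progenitor members lower. With no background correction MI6 and MI7 differed in 134 genes, and in the authors' table in 133, where 413 genes were lower, and 3 epithelial members were higher in both. The d16HER2 arrays of BeadChip 1 alone gave 70 genes between MI6 and MI7 and 6 glycolysis members, and those of BeadChip 2 alone 53 and 7. The WTHER2-1 arrays of BeadChip 5 alone gave 3 progenitor members lower and 6 glycolysis members, those of BeadChip 6 alone 7 mesenchymal members lower, and array weights 6 glycolysis members. An alternative chosen after seeing the data, without WTHER2-1 array 3 and array 4 of both d16HER2 lines, called 1319 genes, 1032 of them shared. It called 6 glycolysis and 14 cell cycle members higher and 4 antigen presentation members lower. These alternatives apply the detection filter to the arrays left, so fewer genes are tested. With the genes of all 12 arrays kept, also chosen after seeing the data, BeadChip 1 gave 112 genes between MI6 and MI7 and 6 glycolysis members, BeadChip 2 78 and 7, BeadChip 5 6 glycolysis members and the last alternative 6, and the mesenchymal and progenitor counts stayed within 1.5 times those reported. Leaving out single arrays gave 4 to 5 progenitor members lower with these genes and 3 to 5 with the filter applied again. Over both choices it gave 6 to 11 glycolysis members higher. The cause was not tested.

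The mean difference of both lines changed sign for 6 named genes, of which none was called in both lines in the same direction. Egfr was -0.188 by the mean of its probes, and Erbb3 0.0215 in the alternative chosen after seeing the data. Csn1s1 was -0.210 on BeadChip 2, -0.339 on BeadChip 5, -0.0210 with array weights, -0.00691 in the added alternative, -0.0375 without MI7 replicate 1 and -0.311 without WTHER2-1 replicate 3. Zfp251 was -0.0195 on BeadChip 5, -0.0428 in the added alternative and -0.104 without WTHER2-1 replicate 3. Mmp14 was 0.987 on BeadChip 6, 0.304 without WTHER2-1 replicate 2 and 0.141 without replicate 4, and Pmp22 0.429 on BeadChip 6 and 0.0416 without replicate 2. Over all left-out arrays Csn1s1 ran from -0.311 to 0.312, Zfp251 from -0.104 to 0.777, Mmp14 from -1.80 to 0.304 and Pmp22 from -0.696 to 0.0416. Of the other values, 3323 kept their direction and side of the threshold, 129 lost the call and 14 gained it. No paired analysis was possible because the replicate numbers follow accession order and pair no samples. MI6 and MI7, which share BeadChips, differed in 232 genes with the BeadChip as a random block and in 237 with it as a fixed block, the latter chosen after seeing the data. Dim probes limit the folds to bounds where a line was undetected.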

Other observations

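Gene families chosen after their values were seen, and given without a test of the family, held further calls, against 7.02% higher and 5.98% lower of all genes. Of 18 tested glutathione S-transferase genes, whose products couple glutathione to reactive compounds, 9 were called higher in both d16HER2 lines and 1, Gsta2, lower, with a median difference of 1.56. Gsta2 passed the detection filter through WTHER2-1 alone. Gstt1 measured 11.08 ± 0.54 in MI6, 11.76 ± 0.24 in MI7 and 6.99 ± 1.57 in WTHER2-1 and rose by 4.09 and 4.77. Gstk1 rose by 4.60 and 3.70, with 2.11 at its other probe, and Gstm1 by 4.48 and 3.22, with 0.82 at its other probe. The Gstm genes have near-identical copies that a probe may not tell apart.

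Of 13 tested Hox genes, 4 were called higher and none lower. Hoxb2, Hoxb4 and Hoxb5, neighbours in the Hoxb cluster of body-axis factors, were detected on every d16HER2 array and on no WTHER2-1 array. Hoxb4 was at least 13.8-fold higher in MI6 and 10.9-fold in MI7, Hoxb5 23.7-fold and 8.42-fold, and Hoxb2 7.14-fold and 8.94-fold. Hoxb6 and Hoxb7 were detected on 4 arrays of MI6 and on none of MI7 or WTHER2-1. All these Hoxb genes passed the detection filter through the d16HER2 arrays alone, so the Hox count rests partly on which members entered. Of 9 adhesion G protein-coupled receptor genes, 6 were called higher and none lower, among them Adgre5, which encodes the leukocyte antigen CD97 (4.11 and 4.47), and Adgra1, which was detected on no WTHER2-1 array (at least 8.17-fold and 10.1-fold higher). Adgra1 too passed the filter through the d16HER2 arrays alone.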
